A study of Bos taurus with 14 samples.

Results

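The 2 ribosomal RNAs encoded by the mitochondrial genome, 12S and 16S, were followed in RNA of milk fat globules from 14 cows. They were taken as 2 of the 36075 gene identifiers of the deposited tables, ENSBTAG00000043567 for 12S and ENSBTAG00000043570 for 16S, with ENSBTAG00000043561 for COX1, the mitochondrial gene of cytochrome c oxidase subunit I, as the mRNA reference. Milk fat globules are the lipid droplets that the secretory cell of the udder buds off into milk, and each can carry a crescent of that cell's cytoplasm and RNA. The cows were purebred Holsteins of 1 commercial farm on the same rations and management, 7 homozygous for the A1 form of the β-casein gene (A1A1) and 7 homozygous for the A2 form (A2A2). Each cow gave 1 paired-end mRNA library from frozen milk, and the labels give no age, treatment or stage of lactation.

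Mitochondria keep their own ribosomes, which make the few subunits of the respiratory chain that their genome encodes. 12S is the RNA of the small subunit of this ribosome and 16S that of the large subunit, and their genes lie side by side, parted by a tRNA gene, near the start of heavy-strand transcription. Both are cut out of the same long precursor as most of the mitochondrial mRNAs. In mammals both end in a short run of A residues, the feature by which mRNA libraries usually capture RNA.

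The names of the 2 rRNAs were checked against the data by length, since the files do not pair identifiers with gene names. Counts were divided by the deposited FPKM (counts scaled to gene length and library depth). The scale was set so that COX1 had its reference length of 1545 bases. This gave a length of 955 bases for the 12S identifier and 1571 bases for the 16S identifier. These are the lengths of the 2 rRNA genes on the mitochondrial sequence of the reference table for ARS-UCD2.0. The 12S identifier held 946744 counts over all libraries, and the most abundant other gene of 955 bases held 2037. The 16S identifier held 1993419 counts, against 9603 for the next gene of 1571 bases. COX1, whose 1545 bases set the scale and so do not check its name, held 19542769 counts and had the most of any gene. The same match by length gave 9 further mitochondrial protein genes, which together with these 3 are called the 12 mitochondrial-length genes. In the reference table the order is a tRNA gene, 12S, a tRNA gene, 16S, a tRNA gene and ND1, a complex I subunit gene. The build the authors used is not given in the sources used here, so no coordinates are printed. Mammalian nuclear genomes hold copies of mitochondrial rRNA sequence, and how reads shared with such copies were counted is not given either.

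Total counts per library ran from 16116849 to 22994197, and 12320 genes, with 99.9% of all counts, entered the gene tests. The labels call the cows separate samples and state no pairing. The descriptions of 4 libraries (A1A1 10 and 15, A2A2 5 and 13) end in _2, a suffix the labels do not explain, and values are also given within these 4 and the other 10. A1A1 7 had the lowest total count and the fewest genes with a count, 12545, against 13929 to 17044 in the other 13 libraries. Genes that mark udder epithelium or milk leucocytes were not measured here because they need gene names.

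In these mRNA libraries, whose capture of rRNA was not measured, both rRNAs were abundant but minor among mitochondrial counts. Together they took 0.377 to 1.97% of the counts of a library, with a median of 1.00%. By counts, 16S was between the 12th and the 32nd most abundant gene of a library, and 12S between the 16th and the 72nd. Of the counts of the 12 mitochondrial-length genes, the rRNAs made up 6.0 ± 2.5% (SD, n = 7) in A1A1 and 5.6 ± 0.90% (SD, n = 7) in A2A2. The lowest share was 3.80% in A1A1 9 and the highest 10.77% in A1A1 7. The lowest 12S count of any library was 18649 in A2A2 17, which is 0.107% of its counts (exact binomial 95% interval 0.105 to 0.108%). The highest 16S share was 1.46% in A1A1 7 (1.45 to 1.46%). Such intervals cover counting error only, and the spread between cows was far wider.

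The level of 12S was lower on average in A2A2 than in A1A1 cows, with 4 of 14 cows in the CPM range that both genotypes reached. Levels are CPM, counts in each 1000000 of a library after scaling by TMM factors. In A1A1 the lowest 12S level was 2948 CPM, the median 4403 and the highest 7321. In A2A2 these were 1025, 1728 and 3288 CPM. A1A1 10 and 15, at 2948 and 2993 CPM, lay below A2A2 11 and 13, at 3101 and 3288 CPM. The other 5 A1A1 cows lay above every A2A2 cow, and the other 5 A2A2 cows lay below every A1A1 cow. These counts hold on the TMM scale, where A1A1 3 had a factor of 0.636. By share of library totals 12S took 0.290% in A1A1 3, below the 0.338% of A2A2 11 and the 0.371% of A2A2 13, and 5 cows lay in the shared range. A1A1 cows averaged 4801 ± 1745 CPM and A2A2 cows 2088 ± 862 CPM (SD, n = 7 each), 2.30 times as much in A1A1. Mean log2 CPM differed by -1.23 (A2A2 minus A1A1, standard error 0.304). In edgeR's quasi-likelihood test the fitted log2 fold change was -1.20, with an unadjusted p of 0.00109 and an adjusted p of 0.856 over all genes, so the test was not passed.

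16S showed the larger mean difference of the 2 rRNAs, with 3 of 14 cows in the CPM range that both genotypes reached. No genotype difference in the 12S to 16S ratio was detected (exact permutation p = 0.264, given below), so the contrast between the 2 rRNAs is not established. In A1A1 the lowest 16S level was 5908 CPM, the median 10001 and the highest 14842. In A2A2 they were 2481, 3397 and 6450 CPM. A1A1 10, the lowest of its genotype, lay below A2A2 11 at 6393 and A2A2 13 at 6450 CPM, and the other 6 A1A1 cows, from 7846 CPM up, lay above all A2A2 cows. By share of library totals A1A1 3, at 0.542%, also lay below A2A2 11 at 0.697% and A2A2 13 at 0.729%. A1A1 cows averaged 10605 ± 3445 CPM and A2A2 cows 4095 ± 1683 CPM (SD, n = 7 each), 2.59 times as much in A1A1. Mean log2 CPM differed by -1.40 (standard error 0.285). edgeR's quasi-likelihood test gave a log2 fold change of -1.37, an unadjusted p of 0.000278 and an adjusted p of 0.738. CPM is a share of the counts of a bulk library, so neither the number of contributing cells nor the amount of rRNA per cell was measured.

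**Figure D1:**
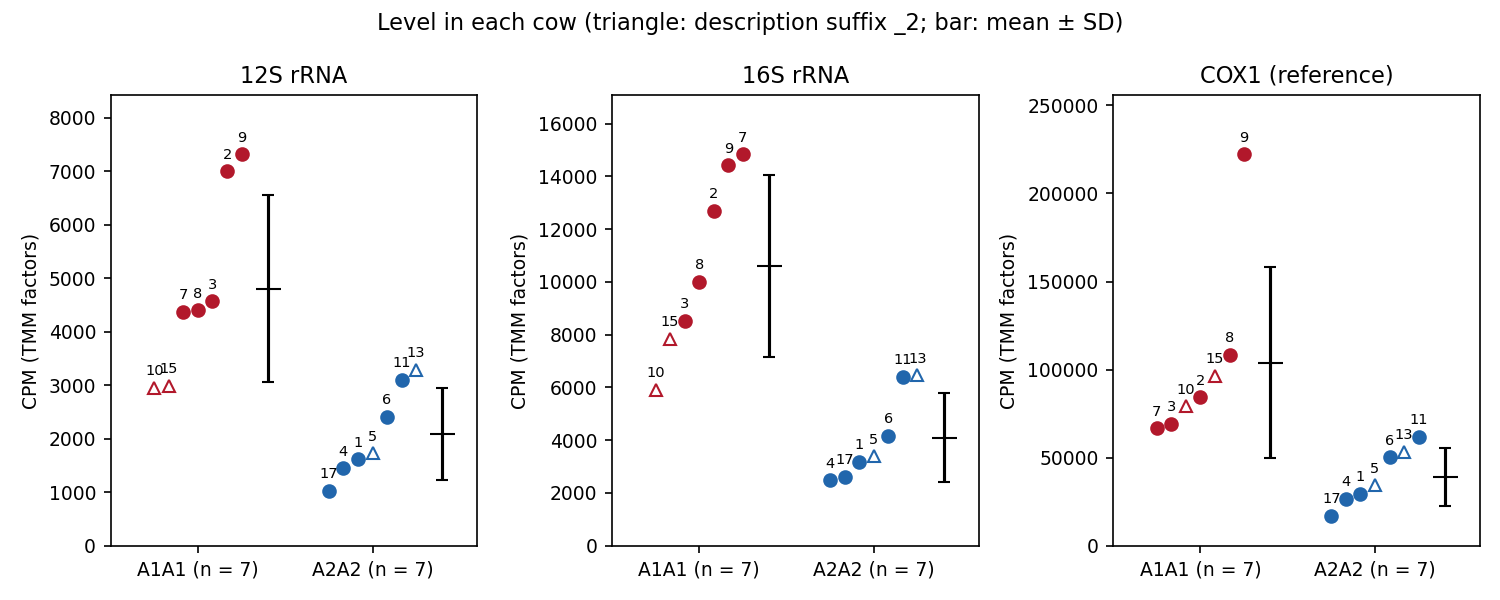
Level of 12S, 16S and the reference COX1 in each cow (y axis, CPM after TMM scaling, starting at 0), by β-casein genotype, with sample numbers; triangles are the libraries with the suffix _2 and bars give the mean ± SD of 7 cows. The 12S panel shows A1A1 10 and 15 below A2A2 11 and 13, the 16S panel shows only A1A1 10 below A2A2 cows, and the COX1 genotypes do not overlap, as for 0.0325% of all genes tested. By share of library totals COX1 overlaps too, A1A1 3 being lower than A2A2 11 at 6.75%.

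Neither rRNA was called by the test over all genes, and both stood near the front of its list. At an adjusted p of 0.05, edgeR called 0 of the 2 rRNAs and 0% of the 12320 genes tested. At an unadjusted p under 0.05, both rRNAs were lower in A2A2, as were 2.15% of all genes. By p, 16S was the 4th and 12S the 9th of 12320 genes. The mitochondrial-length protein genes also stood near the front, from COX1 at the 10th place to ND2 at the 38th. DESeq2 called 16S (log2 fold change -1.40, adjusted p = 0.00254) and missed 12S (-1.24, adjusted p = 0.0539), and it called 0.0487% of all genes lower. limma voom with quality weights called neither, with an adjusted p of 0.116 for 16S and 0.199 for 12S. Over 28 alternatives the adjusted p ran from 0.00254 to 1.00 for 16S and from 0.0539 to 1.00 for 12S. All genes tested had a median log2 fold change of -0.0042. The values of the rRNAs lie among those of the 12 mitochondrial-length genes, from -1.56 for ND2 to -1.04 for ND3, both complex I subunit genes. Among these 12 genes 16S had the 4th lowest log2 fold change and 12S the 11th. None of the 12 passed an adjusted p of 0.05 in edgeR, all 12 had an unadjusted p under 0.05, and their median log2 fold change was -1.29.

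**Figure D2:**
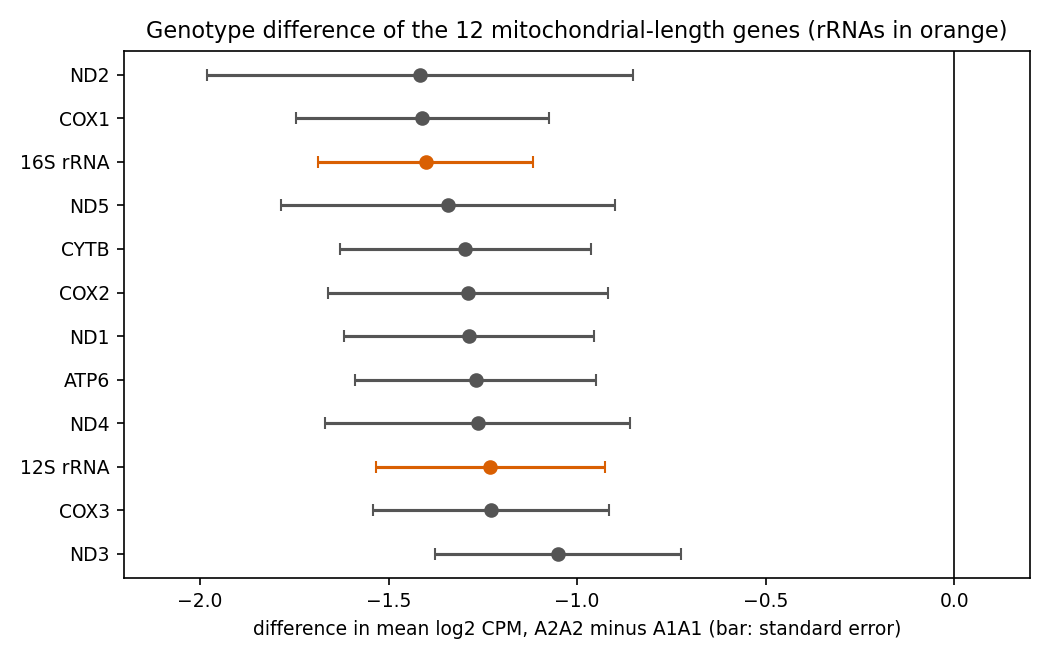
Difference in mean log2 CPM, A2A2 minus A1A1 (x axis), for each of the 12 mitochondrial-length genes (y axis), with bars of 1 standard error over 7 and 7 cows and the rRNAs in orange. All 12 points lie below 0, and 16S at -1.40 and 12S at -1.23 lie within the range of the protein genes.

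Without the libraries that carry the suffix _2 the genotypes did not overlap in CPM after TMM scaling, but they did by share of library totals. On the CPM scale both A1A1 libraries with the suffix, 10 and 15, had the lowest 12S and the lowest 16S levels of their genotype. Among the 10 libraries without the suffix 12S ran from 4376 to 7321 CPM in A1A1 and from 1025 to 3101 in A2A2, and 16S from 8526 to 14842 and from 2481 to 6393 CPM. Such a gap with A2A2 lower was found for 0.187% of all genes tested in these 10 libraries. By share of library totals A1A1 3 lay below A2A2 11 for both rRNAs, with the values given above, and neither has the suffix. edgeR on them gave log2 fold changes of -1.53 for 12S and -1.69 for 16S, with an adjusted p of 0.973 for both. In the 4 libraries with the suffix, 12S was 2948 and 2993 CPM in A1A1 and 1728 and 3288 CPM in A2A2. 16S was 5908 and 7846 CPM in A1A1 and 3397 and 6450 CPM in A2A2, so the ranges of 2 cows and 2 cows overlapped for both. With the suffix as a covariate the fitted log2 fold changes were -1.17 and -1.35. Whether the genotype difference itself differs with the suffix was not tested.

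In recovered counts per base, 16S exceeded 12S in every cow, and both stood below most mitochondrial protein genes. In deposited FPKM, 12S averaged 4968 ± 1748 for A1A1 cows and 2187 ± 896 for A2A2 cows, and 16S averaged 6681 ± 2138 and 2607 ± 1062 (SD, n = 7 each). COX1 stood at 66593 ± 34556 and 25253 ± 10479 FPKM. The per-base level of COX1 was 7.44 to 19.9 times that of 12S in the same library, with a median of 11.83, and 4.57 to 15.7 times that of 16S, with a median of 10.1. Of the 12 mitochondrial-length genes ordered by FPKM within a library, 16S took places 8 to 10 and 12S places 9 to 12.

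The neighbours of the rRNAs in this order were ND2, ND4 and ND5, all complex I subunit genes. ND5 lay below 16S in all 14 libraries and below 12S in 12 of them, since A1A1 10 and 15 had more ND5 than 12S per base. ND4 lay above 12S in 13 libraries and above 16S in 11. ND2 lay above 12S in 8 of 14 libraries and above 16S in 7, so its place next to the rRNAs changed from cow to cow. The other 7 protein genes exceeded both rRNAs in all 14 libraries. ND1, whose gene follows 16S in the genome, was 1.56 to 4.84 times as high per base as 16S.

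**Figure D3:**
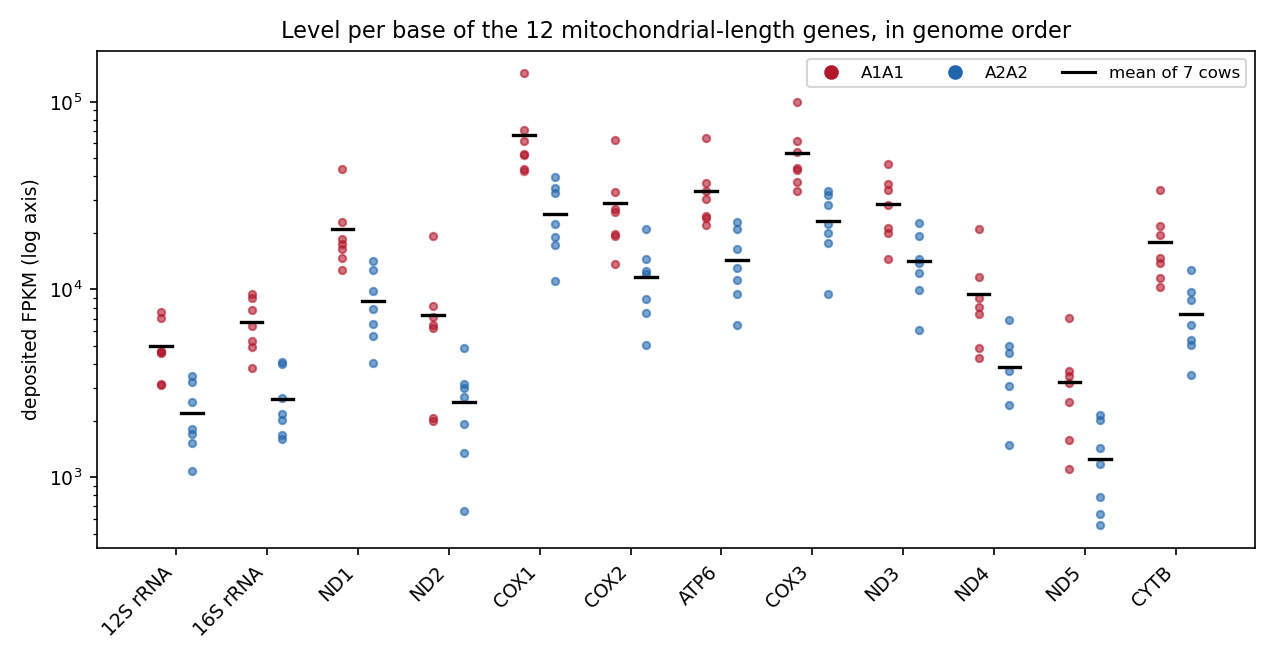
Deposited FPKM (y axis, log scale) of the 12 mitochondrial-length genes in the order of their genes in the genome, with 1 point per cow and a line at the mean of 7 cows of each genotype. 12S and 16S sit at the lower end beside ND2, ND4 and ND5, and about an order of magnitude below COX1 and COX3.

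The ratio of 12S to 16S asks whether the RNAs of both ribosomal subunits were recovered alike, and it does not depend on library size. Per base it was 0.906, 0.882, 0.485, 0.724, 0.836, 0.821 and 0.628 in A1A1 cows 2, 3, 7, 8, 9, 10 and 15. In A2A2 cows 1, 4, 5, 6, 11, 13 and 17 it was 0.837, 0.960, 0.837, 0.951, 0.798, 0.839 and 0.648. A1A1 7, A1A1 15 and A2A2 17 lay lowest, and the other 11 cows lay between 0.724 and 0.960. A1A1 cows averaged 0.755 ± 0.153 and A2A2 cows 0.839 ± 0.104 (SD, n = 7 each). The log2 ratio differed by 0.17 (95% interval -0.12 to 0.48, exact permutation p = 0.264, adjusted p = 0.646 over 3 ratios, two-sided), less than the spread between cows. It was 0.070 without A1A1 7, and 0.028 between medians. The ratio spanned 1.98-fold over 14 cows, while the level of 12S spanned 7.14-fold and that of 16S 5.98-fold.

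The ratio of each rRNA to COX1 compares the counts of ribosomal and messenger RNA recovered in these mRNA libraries. How well each was captured was not measured, so it is not their ratio in the organelle. For 12S it was 0.134, 0.107, 0.106, 0.0657, 0.0533, 0.0602 and 0.0502 in A1A1 cows 2, 3, 7, 8, 9, 10 and 15. A1A1 cows 2, 3 and 7 lay above all A2A2 cows and the other 4 below all of them, since the A2A2 values ran only from 0.0777 to 0.0996. The averages were 0.0824 ± 0.0330 for A1A1 and 0.0876 ± 0.00840 for A2A2 cows (SD, n = 7 each). The log2 ratio differed by 0.18 (95% interval -0.35 to 0.68, exact permutation p = 0.431, adjusted p = 0.646). Between medians it was 0.42 (exact permutation p = 0.0699), without A1A1 2 it was 0.31 and without A1A1 15 it was 0.077. No difference between the genotypes was thus detected, and the interval covers a ratio in A2A2 from 78.3 to 160% of that in A1A1. The SD of the log2 ratio was 0.57 in A1A1 and 0.14 in A2A2, and the difference between these spreads was not tested.

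For 16S the ratio to COX1 was 0.148, 0.121, 0.219, 0.0907, 0.0637, 0.0733 and 0.0800 in the same A1A1 cows. In A2A2 the lowest was 0.0817, the median 0.102 and the highest 0.150. A1A1 7 had the highest value of all and A1A1 9 the lowest, so the A1A1 cows spanned the whole range of the study. The averages were 0.114 ± 0.0550 for A1A1 and 0.107 ± 0.0225 for A2A2 cows (SD, n = 7 each). The log2 ratio differed by 0.0092 (95% interval -0.57 to 0.57, exact permutation p = 0.970, adjusted p = 0.970), far within the spread between cows. The interval covers a ratio in A2A2 from 67.5 to 148% of that in A1A1. Without A1A1 7 the difference was 0.19 and without A1A1 9 it was -0.11, so single cows set its sign.

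**Figure D4:**
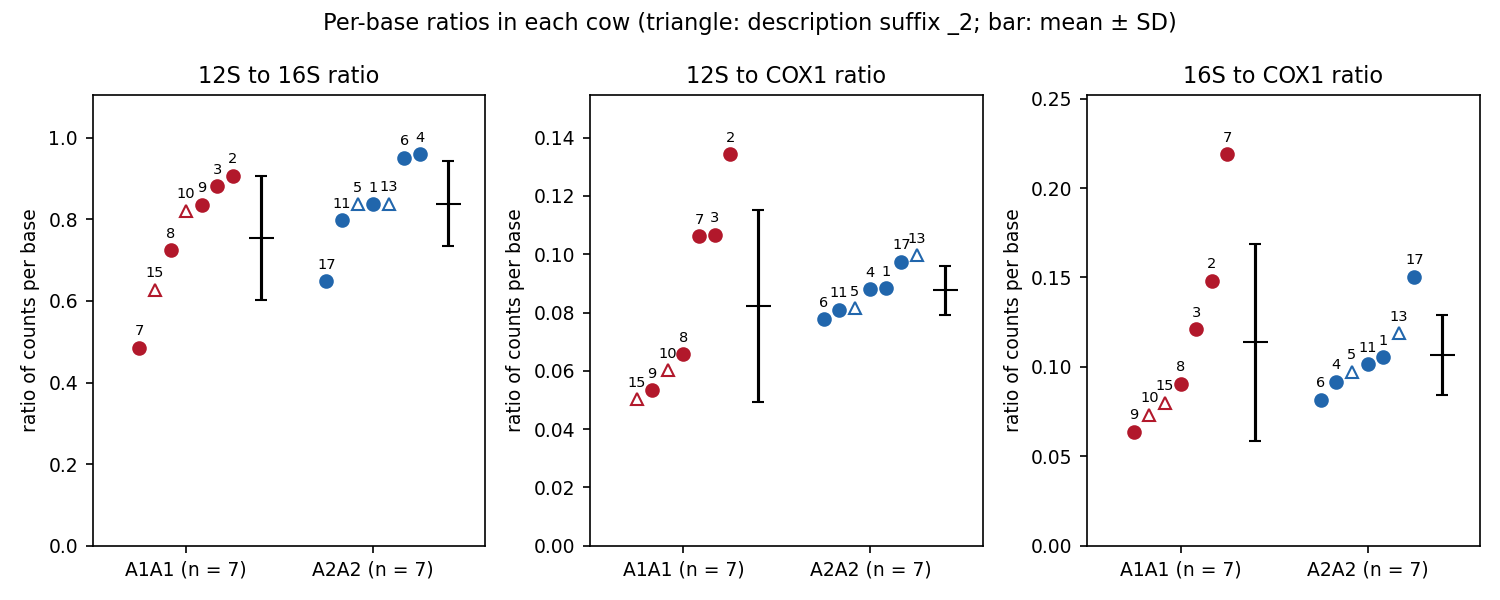
Per-base ratios of 12S to 16S, 12S to COX1 and 16S to COX1 (y axes, counts per base over counts per base, starting at 0) in each cow by genotype, with sample numbers; triangles are libraries with the suffix _2 and bars give the mean ± SD of 7 cows. The means of the genotypes lie close together in each panel, A1A1 cows are more widely spread for both ratios to COX1, and A1A1 7 is lowest for 12S to 16S and highest for 16S to COX1.

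In the 10 libraries without the suffix no genotype difference in the ratios to COX1 was detected, and the 4 with it were too few to test. Without the suffix, 12S to COX1 was 0.0932 ± 0.0332 for A1A1 and 0.0865 ± 0.0077 for A2A2 cows (SD, n = 5 each), a log2 difference of -0.032 (exact permutation p = 0.881). 16S to COX1 was 0.129 ± 0.0597 and 0.106 ± 0.0264 there, a log2 difference of -0.18 (exact permutation p = 0.611). With the suffix, 12S to COX1 was 0.0602 and 0.0502 in A1A1 10 and 15 and 0.0814 and 0.0996 in A2A2 5 and 13. 16S to COX1 was 0.0733 and 0.0800 in A1A1 and 0.0973 and 0.119 in A2A2. These 2 cows and 2 cows do not overlap in either ratio, but they are too few to show a difference, and both ratios share COX1. No test was run on them, and whether the genotype difference in these ratios depends on the suffix was not tested.

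A1A1 7 had the highest 16S share of mitochondrial-length counts and the lowest 12S to 16S ratio of all 14 cows. Dixon's test for a cow far from the others, described below, flagged none of the values of A1A1 7. Its 16S level of 14842 CPM was the highest of all 14 cows, while its COX1 level of 66645 CPM was the lowest in A1A1 and its 12S level of 4376 CPM was below the A1A1 median. By share of library totals its 16S was again the highest, but A1A1 3 had the lowest COX1 of that genotype. 16S held 8.32% of its mitochondrial-length counts, against 2.52 to 5.28% in the other 13 libraries, and 12S held 2.45%, within the 1.22 to 2.64% of the others. A2A2 17, which had the next highest 16S share at 5.28%, had the lowest total count among the A2A2 libraries, 17499819. A1A1 15, with 17800379 counts, had a share of 3.21%, and A1A1 9, with 18498195 counts, had the lowest share at 2.52%. A1A1 7, as given above, had the lowest total count and the fewest genes of all. The part of depth or RNA quality in these ratios was not tested.

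Across the 14 cows 12S and 16S varied together. Their log2 CPM had Pearson r = 0.953 and Spearman rho = 0.934 (n = 14), each with a permutation p of 1e-05, the smallest these resamples can give, and adjusted p of 1e-05 and 3e-05 over 3 relations. Without A2A2 17 and A1A1 9, the 2 libraries farthest from the median of 12S, r was 0.944. With the genotype means subtracted it was 0.886 over all 14 cows, without a test. Within A2A2 r was 0.952 (n = 7, exact permutation p = 0.000992, adjusted p = 0.00149; rho = 0.964, p = 0.00278, adjusted p = 0.00417). Within A1A1 it was 0.796 (n = 7, exact permutation p = 0.0389, adjusted p = 0.117; rho = 0.607, p = 0.167, adjusted p = 0.50), which does not pass once adjusted. In the 10 libraries without the suffix r was 0.955 (permutation p = 5e-05, adjusted p = 0.000105) and rho 0.855 (p = 0.00276, adjusted p = 0.00308). All values of a library share its total count and scaling factor.

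**Figure D5:**
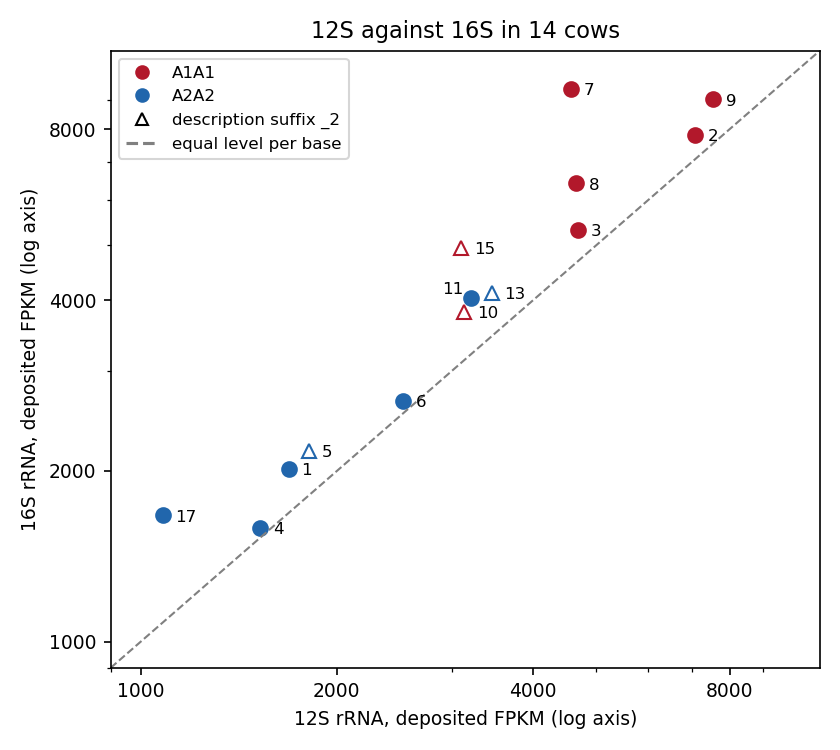
16S (y axis) against 12S (x axis) in deposited FPKM, both on log scales, with 1 point per cow labelled by sample number; the dashed line marks an equal level per base. All 14 points lie above the line, and A1A1 7 lies farthest from it.

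The rRNAs also varied with COX1 over all cows and within A2A2, while no relation was detected within A1A1. Over all 14 cows r with COX1 was 0.903 for 12S (rho = 0.842) and 0.870 for 16S (rho = 0.837), with permutation p of 1e-05 for both r, and 0.00037 and 0.00035 for rho (adjusted p = 1e-05 for r and 0.00037 for rho). Leaving out the 2 farthest libraries gave r of 0.830 and 0.801. Within A2A2 r was 0.979 for 12S (rho = 0.964) and 0.903 for 16S (rho = 0.929; exact permutation p for r = 0.000397 and 0.00377, adjusted p = 0.00119 and 0.00377, n = 7; for rho 0.00278 and 0.00675, adjusted p = 0.00417 and 0.00675). Within A1A1 r was 0.488 for 12S (rho = 0.393) and 0.335 for 16S (rho = 0; exact permutation p for r = 0.283 and 0.499, adjusted p = 0.425 and 0.499, n = 7; for rho 0.396 and 1, adjusted p = 0.593 and 1). The A1A1 value for 12S was -0.26 without A1A1 9 and 2, so it rests on those cows, and that for 16S was 0.665 without A1A1 10 and 7. In the 10 libraries without the suffix r was 0.936 for 12S and 0.881 for 16S (permutation p = 7e-05 and 0.00032, adjusted p = 0.000105 and 0.00032). Whether the correlations differ between the genotypes was not tested.

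Of all 12320 genes tested, the nearest in pattern to 12S was 16S, and the nearest to 16S was 12S, by Pearson r of log2 CPM over 14 libraries. After 16S, 12S was followed by COX3 (r = 0.937), ATP6 (r = 0.937), ND3 (r = 0.922) and CYTB (r = 0.917), genes of cytochrome c oxidase, ATP synthase, complex I and complex III. 16S was followed by ATP6 (r = 0.891), ND1 (r = 0.881), COX1 (r = 0.870) and CYTB (r = 0.860). With the genotype means subtracted, 12S and 16S remained each other's nearest gene, at r = 0.886. COX3, ATP6 and ND3 then held places 2 to 4 for 12S (r = 0.854, 0.852 and 0.849). For 16S the next mitochondrial-length gene was then ATP6 at place 14 with r = 0.727. These correlations are descriptions over 14 libraries that share totals and scaling.

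The spread of ratios within a genotype is a measure of likeness that does not depend on library size. The SD of the log2 ratio of 12S to 16S, pooled over both genotypes, was 0.27, and this pair had the 23rd smallest spread of 66 pairs among the 12 genes. Without A1A1 7 it was the 11th. For 12S the next smallest spreads were with COX3 (0.31), ATP6 (0.32) and ND3 (0.33), and the largest was with ND2 (0.86). For 16S they were with ATP6 (0.42) and ND1 (0.45), again largest with ND2 (0.96), the widest of all 66 pairs. Without A1A1 7 the order for 16S changed, with ND3 (0.24) ahead of ATP6 (0.27). Relative to 16S, ND2 ran from 0.221 to 2.14 per base across the 14 libraries.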

How the data were processed

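Raw counts and FPKM were deposited by the authors, both with 36075 Ensembl cattle identifiers in rows and 14 libraries in columns. Per the submitters' processing notes, FastQC 0.11.9, cutadapt 4.0, STAR and edgeR 4.0.16 were used, with no role stated. The deposited FPKM equal counts over gene length and library total up to 1 factor per library. This factor lay up to 35.8% from its mean, so the FPKM are not a scaling by library totals alone. With the scale set by the reference length of COX1, implied lengths of all 21104 genes with a count lay within 0.05 of a whole number. The reference table matched 0 identifiers to symbols, so the planned gene lists of mitochondrial ribosomal proteins, rRNA maturation and cell types were not run. For each of 15 mitochondrial protein and rRNA genes the most abundant gene of that length among the top 50 was taken, which gave 12.

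Here edgeR 4.0.16 in R 4.3.3 tested the counts (TMM, filterByExpr, robust quasi-likelihood, A2A2 minus A1A1, Benjamini-Hochberg, threshold 0.05). Log2 CPM used a prior of 0.5 counts. Ratios, from counts per base, were compared by exact permutation over all splits into 7 and 7, and correlations by 100000 permutations (exact within a genotype). Intervals of ratio differences invert that test. The 5 genes most like each rRNA were named by Pearson r. Alternatives were other scalings, filters, DESeq2 1.42.0, limma 3.58.1 on voom or log2(FPKM + 1) and log2(FPKM + 0.1), the suffix, and left-out libraries. Scripts were tested on simulated data. Members and lists were chosen with earlier results of these data known. P-values of the genotype tests set a difference against the spread between these cows, and those of the correlations concern association across them.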

Additional observations from a re-analysis of the deposited data

Results flagged for a closer look

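In each genotype 7 measures were searched on a log scale for a cow far from the other 6 (Dixon's test): the levels of 12S, 16S and COX1, the 3 ratios, and the rRNA share of mitochondrial-length counts. 1 of these 14 sets held such a cow, and chance gives about 1 in 20. It was A1A1 9, with a COX1 level of 222371 CPM, against 66645 to 108445 CPM in the other A1A1 cows. Its 12S level of 7321 CPM and its 16S level of 14410 CPM did not stand apart in this way.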

How the results depend on the processing

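The levels of 12S and 16S were lower in A2A2 in all 28 alternatives. The log2 fold change lay between -1.53 (libraries without the suffix) and -0.99 (library totals) for 12S, and between -1.69 (libraries without the suffix) and -1.18 (without A1A1 3, 7 and 9) for 16S. Leaving out 1 library gave -1.34 to -1.07 and -1.52 to -1.27. Library totals moved the median of all genes to 0.18. DESeq2 called 16S (-1.40) and 9 genes in all, limma on log2(FPKM + 1) called 1 gene, and the other 26 alternatives called 0. Why these tools differ was not tested. Ratios of FPKM repeat those of counts per base by construction, so that alternative is no separate check. The 12S to 16S difference kept its sign in 19 of 19 alternatives, from 0.028 (medians) to 0.23, with 0.070 to 0.23 when leaving out 1 library. For 12S to COX1 it was -0.032 without the suffix libraries, 0.42 between medians and 0.077 to 0.31 when leaving out 1 library. For 16S to COX1 it was -0.0070 on linear ratios, -0.18 without the suffix libraries, -0.080 against the summed protein genes, and -0.11 to 0.19 when leaving out 1 library. No ratio passed an adjusted p of 0.05 in any alternative, the lowest being 0.210. No paired analysis was possible because each sample number occurs once. Each rRNA had at least 18649 counts in every library. The shares of library totals set beside the CPM of A1A1 3 were chosen after seeing the data.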
